A study of Mus musculus with 18 samples.

Results

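The genes followed here are 10 genes of the melanocyte lineage and of its growth factor signals, Dct, Tyr, Tyrp1, Pmel, Mlana, Sox10, Mitf, Kit, Kitl and Ednrb, which were taken by their symbols from an RNA-seq table of 23951 genes. RNA was sequenced from 18 libraries of sorted mouse ear skin, 1 for each of 3 mice in 6 groups. Bulge hair follicle stem cells (HF-SCs) were sorted as CD45- CD49f-high CD34+ cells and basal keratinocytes (b-KCs) as CD45- CD49f-high CD34- cells. DKO* mice were JunB f/f, c-Jun f/f and carried the K5-Cre-ERT transgene and the mT/mG reporter on a mixed background. Control mice (Co) carried K5-Cre-ERT and mT/mG with floxed alleles that were absent or heterozygous, so the Cre and the reporter were shared by all groups. Mice of both sexes were 8 weeks old at the first of 4 daily injections of 2 mg tamoxifen, which the controls received as well, and cells were collected at day 7. The Cre acts in K5-expressing cells, where it deletes the floxed genes and turns membrane Tomato into membrane GFP. The GFP fraction of DKO* mice is therefore called mutant and the Tomato (Tom) fraction non-mutant, and a cell of any type without active K5-Cre keeps Tomato. Control mice were 810, 825 and 828. Their labels name no reporter colour. DKO* mice were 814, 815 and 817, and each gave 4 populations, the GFP and the Tom fraction of the HF-SCs and of the b-KCs. The question addressed was whether genes of pigment cells and their ligand differ between hair follicle and epidermal stem cells, and between mutant, non-mutant and control cells.

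Melanocytes come from the neural crest and place melanin in hair and skin. SOX10 and MITF are transcription factors that specify the lineage and switch on its pigment genes. Tyrosinase (Tyr), Tyrp1 and Dct are melanin-synthesizing enzymes, Pmel forms the fibrils of the melanosome and Mlana is a melanosomal membrane protein. KIT is a receptor tyrosine kinase of melanoblasts and mast cells, and its ligand Kitl is made by neighbouring keratinocytes, fibroblasts and endothelial cells. EDNRB is an endothelin receptor needed for melanoblast development, and endothelial cells use it too. Melanocyte stem cells lie in the bulge region of the hair follicle, next to the HF-SCs. On NCBIM37, the build of the deposited values (mm9), the annotation places Sox10 at chr15:78985343-78994920, Mitf at chr6:97757052-97971352, Dct at chr14:118412014-118451468, Tyr at chr7:94574910-94641943, Tyrp1 at chr4:80480027-80497623, Pmel at chr10:128143314-128157294, Mlana at chr19:29772411-29782938, Kit at chr5:75970941-76052747, Ednrb at chr14:104213842-104243390 and Kitl at chr10:99478264-99563047, all of them protein-coding, and the values cover the exons of each gene.

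The promoter windows of the 3 melanin enzyme genes are shown because these genes are textbook targets of MITF and their levels are compared with that of Mitf below. RefSeq windows (GRCm38.p6, 250 bases before to 50 after an annotated start) were matched by symbol for 7 of the 10 genes, as 10 windows. They were searched on both strands for CATGTG (the core of the M-box, a MITF family site), for CACGTG (an E-box of the same family, its own reverse complement) and for ACAAAG (the core of a Sox site). Capitals mark the matches, which do not overlap each other, and each sequence runs 5′ to 3′ on the strand of its gene. The windows of Dct at chr14:118052197-118052496 (minus strand), Tyr at chr7:87493463-87493762 (minus strand) and Tyrp1 at chr4:80833963-80834262 (plus strand) read as follows.
Dct: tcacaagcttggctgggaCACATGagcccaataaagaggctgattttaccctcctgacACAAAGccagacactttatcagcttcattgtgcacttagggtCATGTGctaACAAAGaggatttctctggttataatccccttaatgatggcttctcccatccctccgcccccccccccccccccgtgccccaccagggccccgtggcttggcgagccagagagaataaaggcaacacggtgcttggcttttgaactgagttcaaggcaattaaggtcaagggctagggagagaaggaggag
Tyr: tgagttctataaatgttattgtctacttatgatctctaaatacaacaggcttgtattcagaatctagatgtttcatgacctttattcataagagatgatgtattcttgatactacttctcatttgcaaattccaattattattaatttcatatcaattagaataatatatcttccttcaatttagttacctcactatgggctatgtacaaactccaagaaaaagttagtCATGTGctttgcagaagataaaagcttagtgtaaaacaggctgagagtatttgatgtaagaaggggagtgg
Tyrp1: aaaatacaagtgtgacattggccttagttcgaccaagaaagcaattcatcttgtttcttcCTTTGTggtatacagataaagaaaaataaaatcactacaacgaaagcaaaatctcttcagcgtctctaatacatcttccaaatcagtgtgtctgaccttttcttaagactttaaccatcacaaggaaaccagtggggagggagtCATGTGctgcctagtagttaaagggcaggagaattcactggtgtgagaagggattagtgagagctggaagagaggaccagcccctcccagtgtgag

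The Dct window holds the M-box core at 2 places, beginning 232 and 150 bases before the start, the Tyr window at 1 place 21 bases before it and the Tyrp1 window at 1 place 46 bases before it. The Sox core lies at 192 and 141 bases before the start of Dct and at 190 before that of Tyrp1. Of 32851 mouse promoter windows of this length, 14.15% hold the M-box core, 7.15% the E-box and 18.71% the Sox core. None of the motifs was found in the 3 windows of Mitf (chr6:97806808-97807107, chr6:97929567-97929866 and chr6:97991533-97991832), in the 2 of Kit or in those of Kitl and Ednrb. Mitf has several starts, the melanocyte form being read from one of them, and FPKM (fragments scaled by transcript length and by library size) adds them all up, so the forms cannot be told apart here.

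The deposited FPKM values moved in steps that placed the depth of a library at 16529000 to 26288000 reads by calculation, and 3 reads on a transcript of 1 kb were worth 0.114 to 0.182 FPKM. Jun and Junb, the deleted genes, were lower in each GFP library than in each Co or Tom library of its cell type, with Jun at a mean of 62.8 FPKM in the GFP, 418 in the Tom and 983 in the control HF-SCs (n = 3 each), and Jun was also lower than in the controls in the Tom fraction of the HF-SCs (-1.30, adjusted p = 0.0155) and of the b-KCs (-1.94, adjusted p = 0.00114). Junb was also lower than in the controls in b-KC Tom (-1.27, adjusted p = 0.00308, limma). In HF-SC Tom it was not called (-0.56, adjusted p = 0.147), although it did not overlap the controls. Cd34 had 640 to 889 FPKM in HF-SC Co and 1.12 to 2.04 in b-KC Co. Krt14 and Krt15 were listed at exactly 0 in some libraries of these keratinocytes, so a 0 may be a failed estimate. Markers of another cell type differed between groups. The summed FPKM of 9 endothelial markers was 57.3 to 94.4 in HF-SC Co, 1.85 to 29.7 in the GFP and 540 to 1691 in the Tom HF-SCs. In b-KCs it was 1.37 to 2.83 in the controls, 1.53 to 6.74 in the GFP and 4.88 to 10.8 in the Tom fraction, with mouse 817 lowest in each DKO* population. Mouse 817 stood apart from mice 814 and 815 for several of the 10 genes, and many results are given with and without it. It was singled out after its values were seen, and a fit without it leaves mice 814 and 815 alone in each DKO* group. Results of such fits are therefore descriptions. In such bulk samples, fewer cells of a type and less RNA per cell cannot be told apart.

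The 10 genes were expressed at low to moderate levels. FPKM is a level per length and allows genes to be compared. Kitl (18 of 18 libraries at 1 FPKM or more, 1.45 to 27.1) and Mitf (12 of 18, 0.385 to 19.9) were the most abundant. Tyr was at 1 FPKM or more in 16 libraries, Pmel in 13, Dct in 8, Kit in 4, Mlana in 4, Tyrp1 in 3, Ednrb in 3 and Sox10 in 0. A gene entered the test if 3 or more libraries reached 1 FPKM. Tests were made with limma on log2(FPKM + 1), all 18 libraries in 1 fit, and Benjamini-Hochberg adjustment over the 12751 genes that passed. Of the 10 genes, 9 passed and Sox10 did not. Fold changes below are differences on this log2(FPKM + 1) scale, which understates the change of low genes, and a gene is called at an adjusted p under 0.05.

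**Figure D1:**
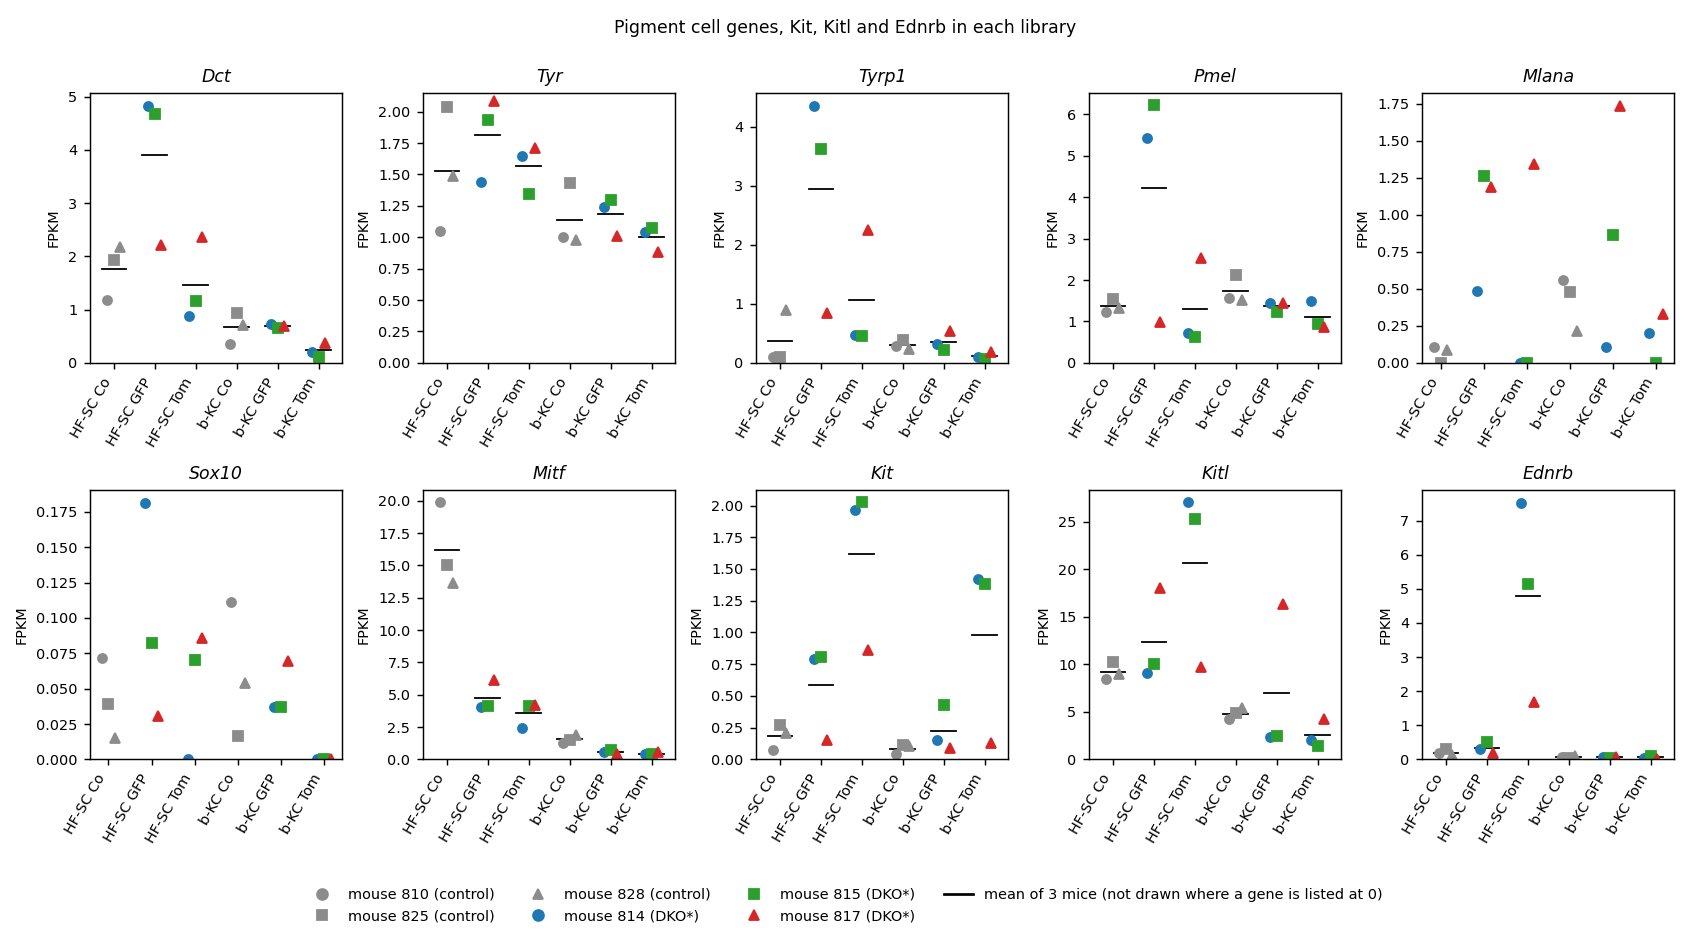
FPKM of each of the 10 genes in the 18 libraries, by group on the x axis, with symbols for the mice and a line at the mean of 3 mice (not drawn for Mlana and Sox10, which were listed at 0 in 4 libraries each). Mitf is highest in the 3 HF-SC Co libraries (13.6 to 19.9), Ednrb in the 3 HF-SC Tom libraries (1.68 to 7.53), and mouse 817 (red triangles) lies apart from mice 814 and 815 for Tyrp1, Pmel and Kitl.

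Against HF-SC Co, 4 of the 9 tested genes were called in HF-SC GFP (Dct, Tyrp1 and Mlana higher, Mitf lower), where 38.5% of all tested genes were called. In HF-SC Tom 3 were called (Kit and Ednrb higher, Mitf lower), where 44.4% of all tested genes were. Against b-KC Co, 1 was called in b-KC GFP (Mitf, lower), beside 41.6% of all tested genes, and 2 in b-KC Tom (Kit higher, Mitf lower), beside 45.9%. Between the fractions, 2 were called in HF-SCs (Dct and Ednrb, beside 8.63% of all tested genes) and 0 by limma in b-KCs (1.71%), where 1, Kit, had an unadjusted p under 0.05. Between HF-SC Co and b-KC Co, 2 were called (Mitf and Dct, beside 51.9%). Between the cell types, the change from Co differed for 1 gene in GFP (Mitf, beside 12.5%) and for 2 in Tom (Mitf and Ednrb, beside 15.8%). At an adjusted p under 0.01 the shares of all tested genes were 25.4%, 29.6%, 24.5%, 30.8%, 4.99%, 0.486%, 38.0%, 5.21% and 8.05% in the order of these 9 comparisons. When the log2 fold change also had to reach 2 in size, they were 3.07%, 4.09%, 1.87%, 2.75%, 1.98%, 0.0863%, 5.65%, 0.863% and 1.98%, and the calls left among these genes were Ednrb in HF-SC Tom and in the Tom difference between cell types, and Mitf between the control populations. These counts are an account of the genes and no support for a pattern, since Kit, Mlana, Tyrp1 and Ednrb passed the filter through the 3 or 4 libraries where they were high, and the shares are near or below those of all genes in the comparisons with Co. The comparisons of GFP and of Tom with Co share their control libraries, and the GFP and Tom libraries share their mice.

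**Figure D2:**
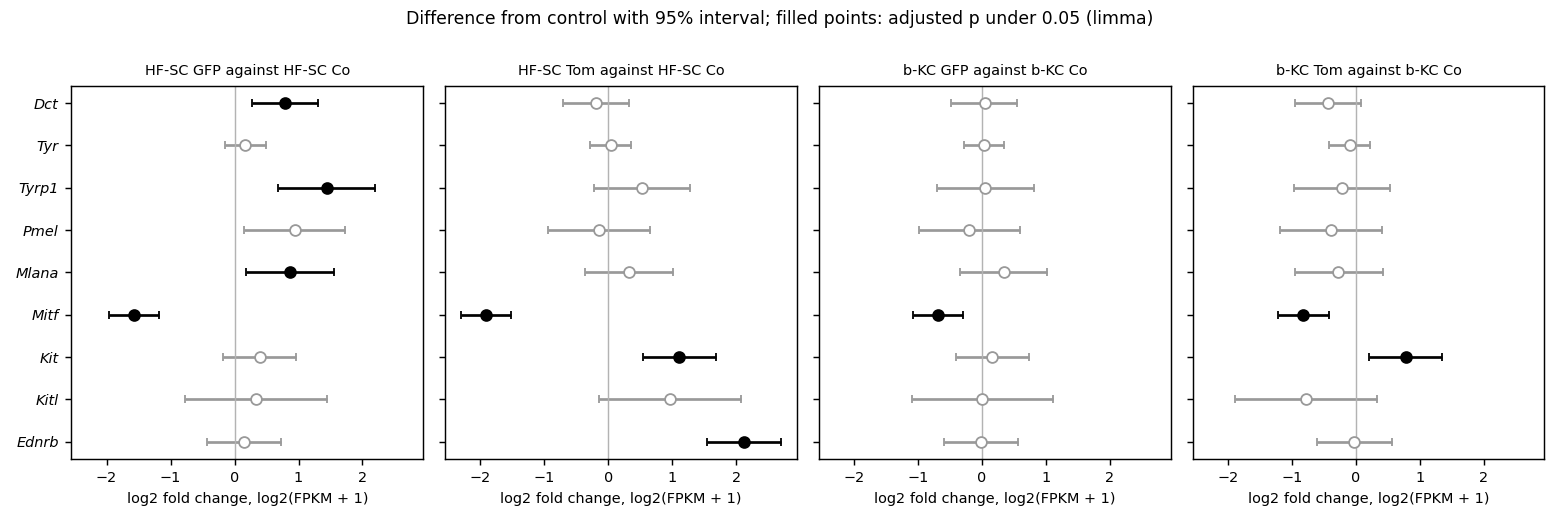
Log2 fold change on the log2(FPKM + 1) scale with its 95% interval for the 9 tested genes, in 4 panels for each DKO* population against its Co counterpart (n = 3 mice per group). Filled points passed an adjusted p of 0.05 in limma. Mitf is filled and to the left of 0 in all 4 panels, at -1.58, -1.91, -0.69 and -0.82.

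Mitf, the regulator of the lineage, had the largest difference of the 9 tested genes between the control populations and fell in all 4 DKO* populations. It had 19.9, 15.00 and 13.6 FPKM in control HF-SCs (16.2 ± 3.28, SD, n = 3) and 1.30, 1.51 and 1.85 in control b-KCs (1.55 ± 0.282). Every HF-SC Co library thus lay above every b-KC Co library, with a ratio of means of 10.4 and a log2 fold change of 2.74 (SE 0.18, adjusted p = 1.23e-08, limma). In HF-SC GFP it had 4.05, 4.13 and 6.10 FPKM, and in HF-SC Tom 2.46, 4.10 and 4.20. No DKO* HF-SC library reached the lowest control, and the change from Co was -1.58 in HF-SC GFP (SE 0.18, adjusted p = 9.09e-06, ratio of means 0.294) and -1.91 in HF-SC Tom (SE 0.18, adjusted p = 1.13e-06, ratio of means 0.222). In b-KC GFP Mitf had 0.572, 0.730 and 0.456 FPKM, and in b-KC Tom 0.385, 0.404 and 0.549. Both groups lay below the b-KC Co libraries without overlap, with changes of -0.69 (adjusted p = 0.00855, ratio of means 0.377) and -0.82 (adjusted p = 0.00231, ratio of means 0.287). The 2 fractions were close to each other, with a GFP minus Tom difference of 0.33 in HF-SCs (95% interval -0.06 to 0.73, adjusted p = 0.346) and 0.13 in b-KCs (-0.26 to 0.52, adjusted p = 0.941). The order of the levels was therefore HF-SC Co, then HF-SC GFP and HF-SC Tom, which did not differ beyond their spread, then b-KC Co, then b-KC GFP and b-KC Tom, which did not differ either. HF-SC Tom and b-KC Co, neighbours in that order, were not tested against each other.

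Mitf fell more in HF-SCs than in b-KCs on the log2(FPKM + 1) scale, with differences of -0.89 for GFP (adjusted p = 0.0351, limma interaction test) and -1.10 for Tom (adjusted p = 0.00944). With a pseudocount of 0.1 the values were -0.47 (adjusted p = 0.401) and -0.57 (adjusted p = 0.339), and neither was called, nor was the GFP difference without the filter on low values (-0.89, adjusted p = 0.0574). The 4 ratios of means given above lie between 0.222 and 0.377. The GFP difference also lost its call without mouse 810 (-0.67, adjusted p = 0.197), 814 (-0.81, adjusted p = 0.0951), 815 (-0.75, adjusted p = 0.264) or 825 (-0.92, adjusted p = 0.0908), and the Tom difference without mouse 810 (-0.87, adjusted p = 0.0713).

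Sox10, the other lineage factor, was low in every library, with at most 0.182 FPKM. It had 0.0719, 0.0395 and 0.0151 FPKM in control HF-SCs, 0.182, 0.0823 and 0.0310 in the GFP HF-SCs and 0, 0.0701 and 0.0858 in the Tom HF-SCs. In b-KCs it had 0.111, 0.0163 and 0.0542 FPKM in the controls and 0.0373, 0.0368 and 0.0693 in the GFP fraction, and it was listed at 0 in the 3 Tom libraries. On its longest transcript, 3 reads were worth 0.0421 to 0.0669 FPKM. Some libraries lay above this, the highest at 0.182 in HF-SC GFP and 0.111 in b-KC Co, and others lay below. Since no library reached 1 FPKM, Sox10 did not enter the test, and its differences were not tested.

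Among the melanin enzymes, Dct and Tyrp1 rose in HF-SC GFP and Tyr did not pass the test in any comparison. Dct, which converts dopachrome, had 1.19, 1.94 and 2.18 FPKM in control HF-SCs, 4.83, 4.68 and 2.21 in the GFP HF-SCs and 0.882, 1.16 and 2.37 in the Tom HF-SCs. The GFP libraries lay above the Co libraries, with the GFP library of mouse 817 just above the highest control. The log2 fold change was 0.79 (SE 0.24, adjusted p = 0.0172, limma, ratio of means 2.21), and the call was lost without mouse 810 (0.63, adjusted p = 0.0818), 814 (0.64, adjusted p = 0.1004) or 815 (0.66, adjusted p = 0.127), or with a pseudocount of 0.1 (1.06, adjusted p = 0.0571). In b-KCs Dct was lower, with 0.362, 0.937 and 0.714 FPKM in the controls, 0.737, 0.661 and 0.686 in the GFP and 0.208, 0.112 and 0.380 in the Tom fraction. The change in b-KC Tom was -0.43 (adjusted p = 0.160), and it was called with a pseudocount of 0.1 (-1.21, adjusted p = 0.0266), with only the groups compared (adjusted p = 0.0402) and without mouse 817 (-0.51, adjusted p = 0.0214). In HF-SC Tom the change was -0.19 (adjusted p = 0.545), and -0.44 without mouse 817 (adjusted p = 0.0419). HF-SC Co exceeded b-KC Co by 0.72 (SE 0.24, adjusted p = 0.0208), a call lost without mouse 810 (0.75, adjusted p = 0.0540), 825 (0.79, adjusted p = 0.0605) or 828 (0.64, adjusted p = 0.119).

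Tyrp1, which acts after Dct in eumelanin synthesis, had 0.107, 0.0979 and 0.901 FPKM in control HF-SCs and 4.36, 3.62 and 0.846 in the GFP HF-SCs. Mice 814 and 815 were well above the controls, whereas mouse 817 lay within their range. The log2 fold change was 1.44 (SE 0.35, adjusted p = 0.00483, limma), 1.91 without mouse 817 (adjusted p = 2.79e-06) and 1.25 without mouse 815 (adjusted p = 0.0503). Tyrp1 reached 1 FPKM only in the GFP HF-SCs of mice 814 and 815 and in the Tom HF-SCs of mouse 817. It thus entered the test through libraries in which it was high, and its call is a description. In HF-SC Tom, Tyrp1 had 0.464, 0.459 and 2.25 FPKM, mouse 817 being the highest there, and the change from Co was 0.53 (95% interval -0.22 to 1.28, adjusted p = 0.242). In b-KCs Tyrp1 had 0.284, 0.388 and 0.233 FPKM in the controls, 0.314, 0.219 and 0.533 in the GFP and 0.103, 0.0741 and 0.185 in the Tom fraction. All 3 Tom libraries lay below the controls there, a change of -0.22 that was called with only the groups compared (adjusted p = 0.0481) and not in the fit over all groups. Tyr, the rate-limiting enzyme of the pathway, had 1.05, 2.04 and 1.49 FPKM in control HF-SCs, 1.44, 1.93 and 2.09 in the GFP HF-SCs, 1.65, 1.35 and 1.71 in the Tom HF-SCs and 0.886 to 1.43 in the b-KC libraries. These groups overlapped, and the 4 changes from Co lay between -0.09 and 0.17, with adjusted p from 0.392 to 0.876.

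Pmel, a melanosome gene, varied with the same mice as Tyrp1. It had 1.24, 1.53 and 1.33 FPKM in control HF-SCs, 5.43, 6.23 and 0.987 in the GFP HF-SCs and 0.710, 0.625 and 2.53 in the Tom HF-SCs. It was high in the GFP libraries of mice 814 and 815 and below every control in that of mouse 817, and in Tom the order of the mice was the opposite. The change in HF-SC GFP was 0.94 (SE 0.37, adjusted p = 0.0600, limma) and 1.53 without mouse 817 (adjusted p = 1.36e-06). Over the fits with each mouse left out it ranged from 0.60 to 1.53, with adjusted p up to 0.317. In HF-SC Tom it was -0.14 (adjusted p = 0.780), and -0.50 without mouse 817 (adjusted p = 0.00823). In b-KCs Pmel was 1.52 to 2.11 FPKM in the controls, 1.22 to 1.46 in the GFP and 0.878 to 1.48 in the Tom fraction. No DKO* library there reached the lowest control, but the changes of -0.20 in GFP and -0.39 in Tom did not pass (adjusted p = 0.703 and 0.420). Mlana had 0.106, 0 and 0.0890 FPKM in control HF-SCs, 0.486, 1.26 and 1.19 in the GFP HF-SCs and 0, 0 and 1.35 in the Tom HF-SCs. The controls lay under the 0.183 to 0.291 FPKM that 3 reads are worth on this short transcript, and the GFP libraries above it. Mlana reached 1 FPKM in 4 DKO* libraries alone, so it entered the test where it was high, and its call is a description. Mlana rose in HF-SC GFP by 0.87 on the log2 scale (SE 0.32, adjusted p = 0.0438, limma), and it was not called without mouse 810 (0.90, adjusted p = 0.0918), 815 (0.76, adjusted p = 0.171), 825 (0.82, adjusted p = 0.124) or 828 (0.89, adjusted p = 0.101), or without the filter on low values (adjusted p = 0.0673). In b-KCs Mlana had 0.561, 0.479 and 0.212 FPKM in the controls, 0.110, 0.866 and 1.73 in the GFP and 0.205, 0 and 0.329 in the Tom fraction, with overlapping groups. Mlana was lower in HF-SC Co than in b-KC Co by 0.41, with an adjusted p of 0.309 in the fit over all groups. With only the groups compared it was called, without a block (adjusted p = 0.015) and with the mouse as a fixed block (adjusted p = 0.0176).

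Mitf was below every control in all 3 HF-SC GFP libraries, and Tyrp1 was above every control in those of mice 814 and 815 only. Over the 18 libraries, which share mice and groups, log2(FPKM + 1) of Dct correlated with that of Tyrp1 at r = 0.86, Tyrp1 with Pmel at 0.83, Dct with Tyr at 0.73 and Dct with Pmel at 0.72, whereas Mitf correlated with Dct at 0.63, with Tyrp1 at 0.24 and with Pmel at 0.13. Sox10, low in every library, correlated with Dct at 0.57, with Tyrp1 and with Pmel at 0.65, with Mlana at 0.36 and with Tyr at 0.07. These are descriptions and were not tested. Of a list of 12 melanocyte markers, which holds 7 of the genes above, 8 were under 1 FPKM in all 3 HF-SC Co libraries, 6 in each DKO* fraction of the HF-SCs, 9 in the control and in the GFP b-KCs and 10 in the Tom b-KCs. Its summed FPKM was 20.1 to 23.9 in HF-SC Co, 14.1 to 23.2 in the GFP HF-SCs, 6.55 to 15.7 in the Tom HF-SCs and 2.80 to 7.23 in the b-KC libraries, and Mitf made up the larger share of it in HF-SC Co. Slc45a2, Oca2, Slc24a5, Gpr143 and Trpm1, the further markers on that list, stayed under 1 FPKM in all 18 libraries and were not tested. Slc45a2 had at most 0.0490 FPKM in control HF-SCs and 0.141 to 0.344 in the GFP HF-SCs. For Slc24a5 these values were at most 0.273 and 0.323 to 0.549, and for Trpm1 at most 0.0634 and 0.161 to 0.187. None of the 3 GFP libraries overlapped the controls in these genes, whereas Oca2 and Gpr143 overlapped.

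Kit, the receptor, was low in control cells and rose in the Tom populations. It reached 1 FPKM in 4 libraries alone, the Tom libraries of mice 814 and 815. Kit thus entered the test through libraries in which it was high, and its calls are a description. It had 0.0755, 0.269 and 0.206 FPKM in control HF-SCs, 0.789, 0.804 and 0.155 in the GFP HF-SCs and 1.97, 2.02 and 0.861 in the Tom HF-SCs. All 3 Tom libraries exceeded all GFP and Co libraries, by 1.11 over Co (SE 0.27, adjusted p = 0.00343, limma, ratio of means 8.80). The difference of HF-SC GFP from HF-SC Tom was -0.72 (adjusted p = 0.124) and was called with the mouse as a block (adjusted p = 0.0208 as a random block and 0.0409 as a fixed one), with -0.73, -0.75 and -0.69 in mice 814, 815 and 817. In HF-SC GFP the change from Co was 0.39 (adjusted p = 0.262), and 0.61 without mouse 817 (adjusted p = 8.10e-04). In b-KCs Kit had 0.0417, 0.111 and 0.104 FPKM in the controls, 0.157, 0.425 and 0.0910 in the GFP and 1.43, 1.38 and 0.127 in the Tom fraction. The Tom libraries of mice 814 and 815 were high and that of mouse 817 close to the highest control, and the change of 0.78 (SE 0.27, adjusted p = 0.0259, ratio of means 11.4) was lost without mouse 810 (0.75, adjusted p = 0.0753), 814 (0.59, adjusted p = 0.146), 815 (0.61, adjusted p = 0.151), 825 (0.80, adjusted p = 0.0658) or 828 (0.80, adjusted p = 0.0722). Without mouse 817 it was 1.15 (adjusted p = 3.72e-06), and b-KC GFP minus b-KC Tom was then -0.91 (adjusted p = 7.71e-04), against -0.62 in all 3 mice (adjusted p = 0.367).

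Ednrb, the endothelin B receptor, was detected at more than 1 FPKM in HF-SC Tom alone. It had 0.178, 0.292 and 0.120 FPKM in control HF-SCs, 0.307, 0.502 and 0.181 in the GFP HF-SCs and 7.53, 5.14 and 1.68 in the Tom HF-SCs. The lowest Tom library, of mouse 817, was above the highest of the others. The ratio of means to Co was 24.3 and the log2 fold change 2.12 (SE 0.27, adjusted p = 1.77e-05, limma). HF-SC GFP was lower than HF-SC Tom, with a difference of -1.97 (SE 0.27, adjusted p = 1.19e-04), with -2.71, -2.03 and -1.18 in mice 814, 815 and 817, and this difference missed the threshold when only the 6 libraries of the groups compared were fitted (adjusted p = 0.0549). In b-KCs Ednrb was 0.0252 to 0.110 FPKM in all 9 libraries, beside 0.0286 to 0.0455 FPKM for 3 reads on its longest transcript. The change in Tom differed between the cell types by 2.14, HF-SC minus b-KC (SE 0.39, adjusted p = 0.00135, limma interaction test). Ednrb reached 1 FPKM in the 3 HF-SC Tom libraries alone, so it entered the test through the group in which it was high, and its calls there are no more than a description of that group.

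Endothelial and mast cell markers were measured beside Kit and Ednrb. All 9 endothelial markers rose in HF-SC Tom, beside 44.4% of all tested genes called there in either direction. Their median change was 3.65 on the log2 scale, against -0.04 over all tested genes, and the library with the lowest sum, 540 FPKM in mouse 817, also had the lowest Ednrb and Kit of that group. In HF-SC GFP 7 of the 9 fell, beside 38.5% of all tested genes called. In b-KC Tom, where Kit was high in mice 814 and 815, the endothelial sum was 9.62, 10.8 and 4.88 FPKM in mice 814, 815 and 817, 5 of the 9 markers were under 1 FPKM in every library and Ednrb was near the limit of detection. Over the 18 libraries Kit correlated with Ednrb at r = 0.72 and Kitl with Ednrb at 0.66, as a description. Of 8 mast cell markers, 7 were under 1 FPKM in every library of each group, among them Cpa3 (at most 0.0832 FPKM), Tpsb2 (at most 0.0406) and Mcpt4 (listed at 0 in all 18 libraries). Cma1, the mast cell chymase, was listed at 0 in all 3 HF-SC Co libraries and had 0.208 to 0.416 FPKM in the GFP and 0.0354 to 0.393 in the Tom HF-SCs. In b-KCs Cma1 had at most 0.0400 FPKM in the controls, 0.175 to 0.423 in the GFP and 0.0942 to 0.219 in the Tom fraction. Every DKO* library thus lay above the controls of its cell type, beside 0.114 to 0.182 FPKM for 3 reads on a transcript of 1 kb. Fcer1a and Ms4a2, subunits of the IgE receptor, were listed at 0 in all 6 control libraries and reached 0.262 and 0.253 FPKM in DKO* HF-SCs. These low genes did not enter the test. Hdc, a histamine-forming enzyme that is not particular to mast cells, was the 1 tested marker of this list. It carried the sum of the list in HF-SC Tom, with 47.6, 51.7 and 35.98 FPKM, beside 0.854 to 1.34 in HF-SC Co and 1.40 to 2.63 in HF-SC GFP. Hdc was called higher than Co in HF-SC Tom (4.47), HF-SC GFP (0.47) and b-KC GFP (0.58). It reached 1 FPKM in HF-SC libraries alone, among them all of the DKO* ones, so its calls there are a description. The part of endothelial and mast cells in the Kit, Kitl and Ednrb values was not tested.

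**Figure D3:**
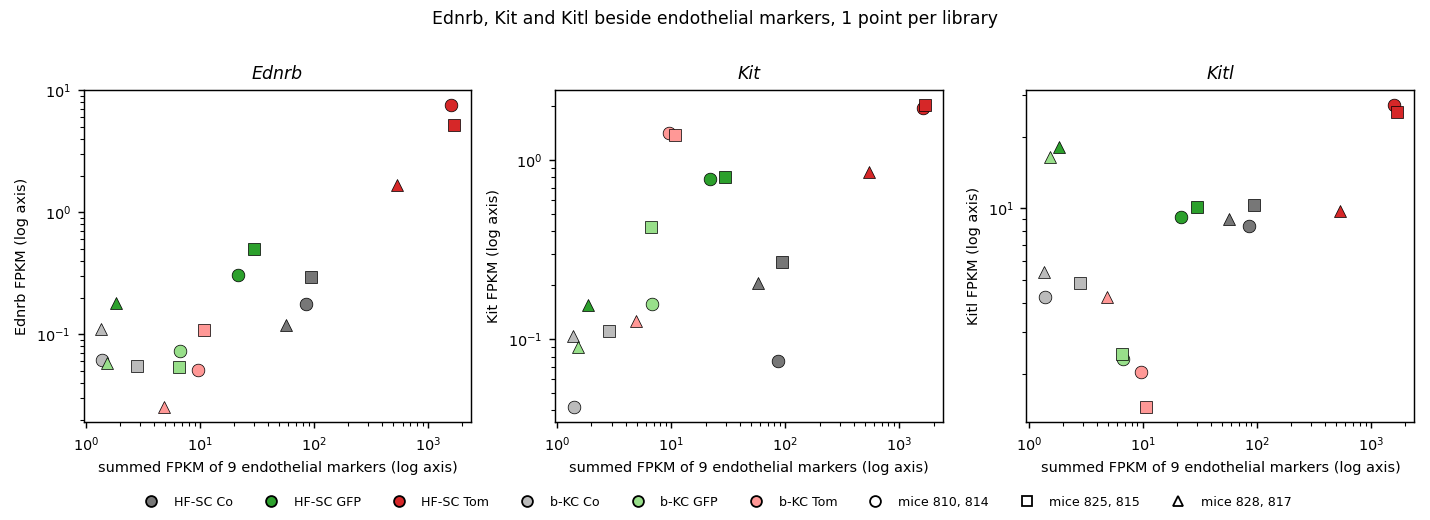
FPKM of Ednrb, Kit and Kitl (y axes, log scale) against the summed FPKM of 9 endothelial markers (x axis, log scale), with 1 point per library, colours for the 6 groups and symbols for the mice. The 3 HF-SC Tom points lie at the right, at 540 to 1691 FPKM of endothelial markers, and hold the 3 highest Ednrb values, whereas the 2 GFP points of mouse 817 have high Kitl (18.01 and 16.4) at endothelial sums of 1.85 and 1.53.

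Kitl, the ligand of KIT, was the most abundant of these genes in b-KCs and in the DKO* HF-SC populations, and in HF-SCs its order between the fractions varied with the mouse. It had 8.42, 10.3 and 9.01 FPKM in control HF-SCs (9.23 ± 0.942, SD, n = 3) and 4.24, 4.85 and 5.40 in control b-KCs (4.83 ± 0.583). The control groups did not overlap, and the difference of 0.81 (ratio of means 1.91) had an adjusted p of 0.204 in the fit over all groups (limma) and of 7.60e-04 with only the groups compared or 6.82e-04 with the mouse as a fixed block. In HF-SC GFP Kitl had 9.15, 10.1 and 18.01 FPKM and in HF-SC Tom 27.1, 25.3 and 9.74. Tom exceeded GFP in mice 814 and 815, by about the same size (-1.47 and -1.25 for GFP minus Tom), and the order was turned in mouse 817 (0.82). The change from Co was 0.34 in GFP (95% interval -0.77 to 1.44, adjusted p = 0.637) and 0.97 in Tom (-0.14 to 2.07, adjusted p = 0.145). Without mouse 817 the Tom change was 1.42 (adjusted p = 1.28e-06) and GFP minus Tom was -1.36 (adjusted p = 1.13e-05, against -0.63 and 0.560 in all 3 mice). Over the fits with each mouse left out, the Tom change ranged from 0.72 to 1.42, with adjusted p up to 0.364. GFP minus Tom then ranged from -1.36 to -0.21, with adjusted p up to 0.971.

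In b-KCs Kitl had 2.31, 2.43 and 16.4 FPKM in GFP and 2.04, 1.45 and 4.21 in Tom. The GFP libraries of mice 814 and 815 lay below every control and that of mouse 817 far above the highest control, so the change in GFP was 0.00 with mouse 817 (95% interval -1.10 to 1.11, adjusted p = 0.998, limma) and -0.79 without it (adjusted p = 2.86e-04). GFP exceeded Tom in all 3 mice, by 0.12, 0.48 and 1.74 in mice 814, 815 and 817, with a mean difference of 0.78 (SE 0.52, adjusted p = 0.696) that was 0.30 without mouse 817 (adjusted p = 0.299). All 3 Tom libraries lay below the controls, with a change of -0.78 (adjusted p = 0.232), which was called with only the groups compared (adjusted p = 0.0425) and, at -1.09, without mouse 817 (adjusted p = 2.00e-05). The Tom changes of the cell types differed by 1.75, HF-SC minus b-KC (SE 0.74, adjusted p = 0.126, limma interaction test). This was called with only the groups compared (adjusted p = 0.0324) and, at 2.50, without mouse 817 (adjusted p = 5.57e-07). By mean level the order was HF-SC Tom, HF-SC GFP, HF-SC Co, b-KC GFP, b-KC Co and b-KC Tom, and none of these neighbours for which a test was made had a called difference in the fit over all groups, although b-KC Co and b-KC Tom did not overlap. HF-SC Co and b-KC GFP were not tested against each other.

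Within each DKO* mouse, GFP was compared with Tom directly. In HF-SCs, Dct differed by 1.63, 1.39 and -0.07 in mice 814, 815 and 817, Tyrp1 by 1.87, 1.66 and -0.82, and Pmel by 1.91, 2.15 and -0.83. Mice 814 and 815 thus had more of these pigment transcripts in GFP, and mouse 817 did not. The mean difference of Dct was 0.99 (SE 0.24, adjusted p = 0.0166, limma), and it was lost without mouse 814 (0.66, adjusted p = 0.357) or 815 (0.78, adjusted p = 0.387), with a pseudocount of 0.1 (1.39, adjusted p = 0.0559), with only the groups compared (adjusted p = 0.198) and with the mouse as a fixed block (adjusted p = 0.199). Tyrp1 at 0.91 (adjusted p = 0.150) and Pmel at 1.08 (adjusted p = 0.0975) were called without mouse 817, at 1.77 (adjusted p = 2.68e-05) and 2.03 (adjusted p = 2.59e-07). Mlana at 0.55 (adjusted p = 0.382) was called without it as well, at 0.87 (adjusted p = 0.0151). With other mice left out, Tyrp1, Pmel and Mlana went down to 0.42, 0.54 and 0.23, with adjusted p up to 0.852, 0.834 and 0.967. In b-KCs the 3 mice had Dct higher in GFP, by 0.52, 0.58 and 0.29. The adjusted p was 0.523 in the fit over all groups and 0.0495 with only the groups compared and the mouse as a fixed block.

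**Figure D4:**
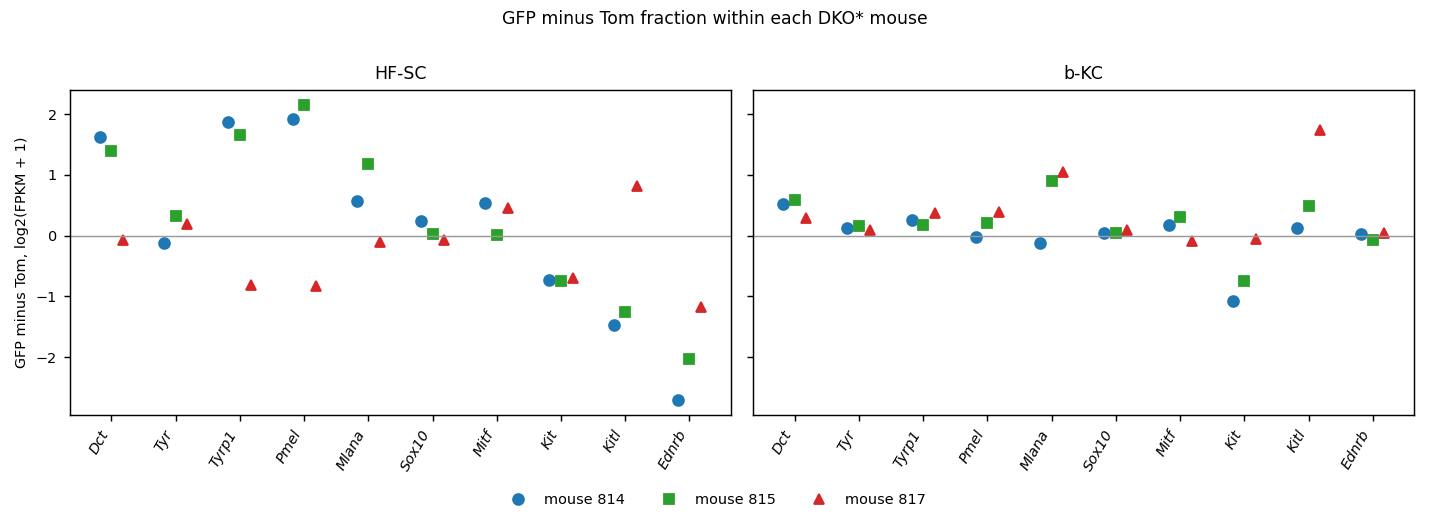
Difference of GFP minus Tom on the log2(FPKM + 1) scale within each DKO* mouse, for the 10 genes on the x axis in HF-SCs (left) and b-KCs (right), with 1 symbol per mouse. In HF-SCs, Tyrp1 and Pmel lie above 0 in mice 814 and 815 and below it in mouse 817, Kitl does the opposite, and Kit and Ednrb lie below 0 in all 3 mice.

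The ligands and the processing enzyme of the endothelin pathway were measured in the same cells. Edn1, an endothelin made by endothelial cells and keratinocytes, had 2.68, 2.40 and 2.28 FPKM in control HF-SCs, 1.26, 1.98 and 0.951 in the GFP HF-SCs and 24.9, 20.1 and 6.20 in the Tom HF-SCs. It rose in HF-SC Tom (ratio of means 6.96, adjusted p = 7.76e-05, limma), the same libraries that held Ednrb, and mouse 817 was again the lowest, as it was in the endothelial marker sum (540 FPKM, beside 1612 and 1691 in mice 814 and 815). The part of endothelial cells in the Edn1 and Ece1 values was not tested. Ece1, the enzyme that matures endothelins, averaged 159 FPKM in HF-SC Tom and 80.8 in HF-SC GFP (adjusted p = 0.00623), and in b-KC Tom it fell by 1.11 on the log2 scale (adjusted p = 6.82e-04). Edn3, the melanoblast ligand of EDNRB, had at most 0.0301 FPKM. Edn2 was higher in b-KC Co than in HF-SC Co, at 45.0 against 10.2 FPKM. Ednra, the A receptor, had 52.4, 38.5 and 47.3 FPKM in control HF-SCs and 2.92, 2.47 and 2.27 in control b-KCs, a difference of 3.72 (SE 0.40, adjusted p = 1.88e-06). It fell by 1.28 on the log2 scale in HF-SC GFP (adjusted p = 0.0196) and by 1.56 in HF-SC Tom (adjusted p = 0.00560), and it rose in b-KC Tom by 1.67 (adjusted p = 0.00355), where mouse 817 had 4.70 FPKM beside 16.3 and 13.6. Ednra and Ednrb thus moved in opposite directions in HF-SC Tom.

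**Figure D5:**
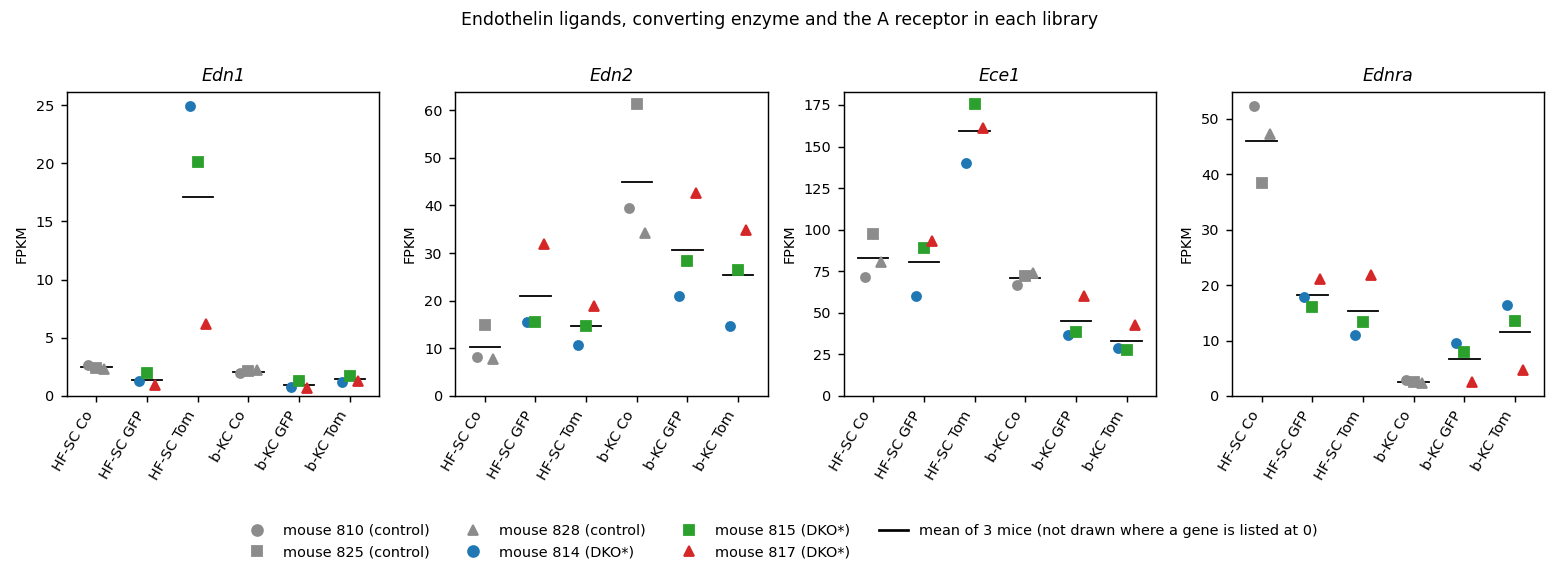
FPKM of Edn1, Edn2, Ece1 and Ednra in the 18 libraries, by group on the x axis, with symbols for the mice and a line at the mean of 3 mice. Edn1 is high in the 3 HF-SC Tom libraries (6.20 to 24.9) and at most 2.68 elsewhere, and Ednra is highest in HF-SC Co (38.5 to 52.4).

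Signals to melanocytes and their processing were followed in a list of 15 genes that includes the endothelins, of which 14 are in the table and 9 were tested. In HF-SC GFP 1 rose and 2 fell, while in HF-SC Tom 4 rose and 2 fell, in b-KC GFP 5 fell and in b-KC Tom 4 fell, beside 38.5%, 44.4%, 41.6% and 45.9% of all tested genes called. The median log2 fold change was -0.07, 0.51, -0.68 and -0.67 in that order, beside -0.05, -0.04, -0.03 and -0.02 over all tested genes, of which 2364 rose and 2545 fell in the GFP and 2843 and 2815 in the Tom HF-SCs, and 2588 and 2713 in the GFP and 2881 and 2976 in the Tom b-KCs. Tgfb1, which restrains melanocyte differentiation, rose from 4.98, 3.40 and 4.53 FPKM in control HF-SCs to 9.90, 13.4 and 15.2 in the GFP HF-SCs and 14.9, 16.99 and 17.2 in the Tom HF-SCs, changes of 1.38 (adjusted p = 7.76e-05, limma) and 1.72 (adjusted p = 7.40e-06). Every DKO* HF-SC library exceeded every control. Nfib, a factor of HF-SCs that acts on the neighbouring melanocyte stem cells, fell from 142, 94.8 and 102 FPKM to 51.5, 52.2 and 55.8 in the GFP HF-SCs and 38.6, 49.6 and 51.7 in the Tom HF-SCs. Tgfb2, a further member of the TGF-beta family, fell in all 4 populations, by 0.60 and 0.92 on the log2 scale in HF-SC GFP and Tom and by 1.07 and 1.40 in b-KC GFP and Tom. Bmp4, a growth factor of the same family, fell in b-KCs from 12.2 FPKM on average in Co to 2.88 in GFP and 2.93 in Tom. In HF-SC Tom it rose instead, from 1.93, 2.28 and 1.71 FPKM in the controls to 5.98, 7.48 and 3.62 (1.13, adjusted p = 0.00979), without overlap. The endothelial marker sum of the same 3 libraries was 1612, 1691 and 540 FPKM, and mouse 817 was lowest in both, but the part of endothelial cells in these changes was not tested.

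Of 12 receptors and partners of the Kit and endothelin pathways, all of them tested, 1 rose and 4 fell in HF-SC GFP, 2 rose and 4 fell in HF-SC Tom, 0 rose and 3 fell in b-KC GFP, and 1 rose and 4 fell in b-KC Tom. These called shares are to be read beside the 38.5%, 44.4%, 41.6% and 45.9% called over all tested genes, and the counts show nothing particular to the list. Their median change was -0.27, -0.45, -0.30 and -0.34 in that order. Pik3r1, a regulatory subunit of the PI3-kinase that KIT recruits, fell in all 4 populations, from a mean of 81.1 FPKM in HF-SC Co to 35.9 in GFP and 27.9 in Tom and from 18.3 in b-KC Co to 5.72 and 3.32. Ptpn6, the phosphatase SHP-1 that restrains KIT signalling, had 21.1, 23.4 and 25.2 FPKM in control HF-SCs and 7.51, 8.46 and 13.7 in the Tom HF-SCs, and it also fell in all 4 populations, by 0.82 to 1.19 on the log2 scale.

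Of 18 other pigment cell genes, 7 were tested, and the other 11, among them Slc45a2, Oca2 and Slc24a5 of the melanosome membrane, the receptor Mc1r and the lineage factor Pax3, stayed under 1 FPKM in all 18 libraries. In HF-SC GFP 3 rose and 1 fell, beside 38.5% of all tested genes called. Erbb3, a receptor of neural crest cells and also of keratinocytes, had 9.50, 15.6 and 13.5 FPKM in control HF-SCs and 24.7, 37.9 and 31.9 in the GFP HF-SCs (1.23, adjusted p = 0.00363, limma). Mlph, which links melanosomes to myosin, had 0.0870, 0.143 and 0.128 FPKM in control HF-SCs and 1.29, 1.11 and 0.553 in the GFP HF-SCs. In both genes no HF-SC GFP library overlapped the controls, but Mlph reached 1 FPKM in 4 DKO* libraries alone and so entered the test through the libraries in which it was high, and its call among the 3 that rose is a description. Snai2, a transcription factor of melanoblasts and of keratinocytes, fell by 0.88 on the log2 scale in HF-SC GFP and by 1.10 in HF-SC Tom, from 101, 74.99 and 73.3 FPKM in the controls. In HF-SC Tom 2 rose and 1 fell, in b-KC GFP 3 fell, while in b-KC Tom 1 rose and 2 fell, beside 44.4%, 41.6% and 45.9% of all tested genes called, so the counts show nothing particular to this list. Gpnmb, a melanosomal protein also made by other cells, had 21.7, 20.9 and 17.8 FPKM in control b-KCs, 3.05, 4.34 and 8.93 in the GFP b-KCs and 3.84, 8.21 and 12.7 in the Tom b-KCs, lower by 1.82 and 1.31 on the log2 scale (adjusted p = 9.66e-04 and 0.00637). Rab27a, a melanosome transport protein with roles in other secretory cells, fell in both b-KC populations, by 1.07 and 1.27, and rose in HF-SC Tom by 0.99. The median change of the tested genes of this list was 0.59 (GFP) and 0.26 (Tom) in HF-SCs and -0.32 (GFP) and -0.15 (Tom) in b-KCs. Between HF-SC Co and b-KC Co 1 was higher (Snai2) and 4 were lower, with Gpnmb at -2.28 and Rab27a at -1.70, beside 51.9% of all tested genes called. Between GFP and Tom 0 of them was called by limma in either cell type, beside 8.63% of all tested genes in HF-SCs and 1.71% in b-KCs.

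Markers of other cells that could carry these transcripts were measured beside them. Of the Schwann cell markers, Cdh19 had at most 0.0876 FPKM and Foxd3 at most 0.0327 in any library, while S100b was under 1 FPKM throughout. Others were present: Mbp had 6.46 to 9.15 FPKM in control HF-SCs and rose in HF-SC GFP, without overlap, to between 12.5 and 14.6 (adjusted p = 0.0194, limma), Dhh had 0.124 to 0.452 in control HF-SCs and 2.10 to 6.10 in the Tom HF-SCs, the only libraries in which it reached 1 FPKM and entered the test, and Ngfr had 10.8 to 11.7 in control b-KCs and fell in both DKO* fractions of the b-KCs. These genes were named after their values were seen, and the part of such cells in the results was not tested. The sum of 6 fibroblast markers was 45.9 to 95.5 FPKM in HF-SC Co, 19.4 to 120.5 in the GFP HF-SCs, 13.9 to 114.9 in the Tom HF-SCs and 1.67 to 6.16 in the b-KC libraries. The sum of 7 leukocyte markers was 1.57 to 2.05 in HF-SC Co, 3.72 to 10.6 in the GFP HF-SCs, 3.12 to 7.79 in the Tom HF-SCs and 1.02 to 3.95 in b-KCs. Of 6 bulge markers, 5 were higher in HF-SC Co than in b-KC Co, and 3 fell in HF-SC GFP and 5 in HF-SC Tom, beside 51.9%, 38.5% and 44.4% of all tested genes called. In b-KCs 1 of them fell in GFP and 4 in Tom, beside 41.6% and 45.9%. Of 5 basal keratinocyte markers, 0 were called between the control populations by limma (5768 to 6736 summed FPKM in HF-SC Co and 15310 to 16630 in b-KC Co). Krt14 and Krt5 nevertheless did not overlap there, with 2085 to 2479 against 9817 to 10560 FPKM for Krt14 and 3163 to 3902 against 4928 to 5530 for Krt5. Krt14 had an SE of 3.14 in the fit, which shares its spread with the 3 DKO* b-KC libraries in which Krt14 was listed at 0. In each DKO* population 1 or 0 of these markers was called. The part of these cells in the values above was not tested.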

How the data were processed

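RNA from FACS-sorted ear skin cells of 6 mice was made into 18 unstranded libraries (SMART-Seq v4 and Nextera XT) and read as 51-base single ends. The authors aligned reads to the mouse genome (NCBI37/mm9) with TopHat2 2.0.10 and Bowtie 1.0.0, allowing 2 mismatches and 20 places per read, and deposited FPKM per gene and library from Cufflinks 2.2.1. Read-level Cufflinks tests could not be repeated from FPKM. Genes overlapping on opposite strands, and near-identical copies, cannot be told apart in these values.

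From the deposited FPKM, limma 3.58.1 (R 4.3.3) was fitted to log2(FPKM + 1) of the 12751 genes with 1 FPKM or more in at least 3 libraries, with 1 mean per group over all 18 libraries and a variance trend. Adjusted p-values are Benjamini-Hochberg values within each of 9 comparisons, from limma throughout. Tables and figures were made with Python 3.11.15, pandas 2.3.3, numpy 2.4.6 and matplotlib 3.10.9, and the fit was tested on simulated data. Depth was calculated from the steps of low FPKM values: 76.9% to 81.0% of them lay within 0.1 of a whole read over 7744 genes, which was too few for a test on counts.

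The members, and the lists of other pigment cell genes, signals, pathway partners and markers of melanocytes, mast cells, Schwann cells, endothelium, fibroblasts, leukocytes, bulge cells and basal keratinocytes, were chosen with earlier results of these data known. Some markers on the Schwann cell list, and the sum of that list, are not reported here. All 10 members were described. The rule for the other lists was to name at most the 3 genes per comparison with the largest called change and no overlap between libraries; some lists are given by counts or sums alone, and genes named without a call (among them mast cell, Schwann cell and keratinocyte markers and Edn3) were chosen outside that rule after their values were seen. Populations of 1 mouse were paired by the labels, which give the same mouse number. Deviations from group means of such libraries correlated at 0.08 to 0.70 over genes, so the mouse was also used as a block. Alternatives were a pseudocount of 0.1, no filter (19924 genes), rescaling of libraries, only the groups compared, the block, stricter thresholds and leaving out each mouse. Promoter windows came from another build (GRCm38.p6) than the FPKM, so no coordinates were joined.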

Additional observations from a re-analysis of the deposited data

Results flagged for a closer look

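3 results stood out because a change from Co differed between the cell types in the limma interaction test (n = 3 mice per group). In GFP, Mitf fell more in HF-SCs than in b-KCs, with a difference of -0.89 on the log2(FPKM + 1) scale (SE 0.26, adjusted p = 0.0351). For Tom the difference in Mitf was -1.10 (SE 0.26, adjusted p = 0.00944). Neither held with a pseudocount of 0.1. The change of Ednrb in Tom differed by 2.14, HF-SC minus b-KC (SE 0.39, adjusted p = 0.00135), beside an endothelial marker sum of 540 to 1691 FPKM in HF-SC Tom and 4.88 to 10.8 in b-KC Tom, whose part in the result was not tested. Ednrb passed the filter through the HF-SC Tom libraries alone, the group in which it was high, so its call describes that group.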

How the results depend on the processing

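The fall of Mitf in all 4 DKO* populations, its excess in HF-SC Co over b-KC Co, and the rise of Kit and Ednrb in HF-SC Tom were called in every alternative fit at an adjusted p under 0.05. For Kit and Ednrb this is no sign of stability, since Kit entered the test through Tom libraries and Ednrb through those of HF-SC Tom. FPKM holds no counts, so low genes such as Sox10 and Mlana are limited by depth. Where a call was lost, the cause was not tested, and leaving a mouse out leaves fewer samples. Calls of the 9 members are counted below.

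In HF-SC GFP against HF-SC Co, 4 were called, 1 to 6 when each mouse was left out (6 without mouse 817), 2 at an adjusted p under 0.01 and 0 with a log2 fold change of at least 2 as well. In HF-SC Tom the count of 3 became 3 to 6 (6 without mouse 817) and 1 with the fold limit. In b-KC GFP the count of 1 became 1 to 2 (2 without mouse 817) and 0 with the fold limit. In b-KC Tom the count of 2 became 5 with only the groups compared (Dct, Tyrp1 and Kitl added), 1 to 4 (4 without mouse 817), 1 at 0.01 and 0 with the fold limit. In HF-SC GFP against HF-SC Tom the count of 2 became 1 with a pseudocount of 0.1, 0 with only the groups compared, 1 to 7 (7 without mouse 817), 1 at 0.01 and 0 with the fold limit. In b-KC GFP against b-KC Tom the count of 0 became 0 to 1. Between the control populations 2 became 4 with only the groups compared, 1 when any control mouse was left out, and 1 at 0.01 with or without the fold limit. The count of 1 for the GFP difference between cell types became 0 with a pseudocount of 0.1, without the filter, at 0.01 and with the fold limit, and 0 to 5 (5 without mouse 817). Those 5 were Mitf, Dct (1.03, adjusted p = 0.00687, limma), Tyrp1 (1.95, adjusted p = 2.15e-04), Pmel (1.75, adjusted p = 5.55e-05) and Kitl (0.84, adjusted p = 0.00571). The 2 for Tom became 3 with only the groups compared (Kitl added), 1 with a pseudocount of 0.1, 1 to 3 and 1 with the fold limit.

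With the mouse as a replicate block, fixed in the groups compared, 1 member was called in b-KC GFP against b-KC Tom, 4 between the control populations and 2 in HF-SC GFP against HF-SC Tom, where the random block gave 3. The members concerned are named with their blocked values above, and no other call differed from the fit over all groups. The fixed block was fitted to the groups compared alone. That restriction without a block already gave the 4 calls between the control populations and lost Dct in HF-SC GFP against HF-SC Tom, so these changes are not put down to the block.

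The direction turned in changes that were not called with all mice. With each mouse left out, HF-SC Tom against HF-SC Co ranged from -0.10 to 0.18 for Tyr, -0.50 to 0.06 for Pmel and -0.09 to 0.53 for Mlana. In b-KC GFP the ranges were -0.10 to 0.15 for Dct, -0.02 to 0.13 for Tyr, -0.04 to 0.13 for Tyrp1, -0.03 to 0.00 for Ednrb and -0.79 to 0.41 for Kitl, which was -0.08 with a pseudocount of 0.1 and -0.01 after rescaling. In b-KC Tom they were -0.14 to 0.01 for Tyr and -0.05 to 0.01 for Ednrb, and in b-KC GFP against b-KC Tom -0.02 to 0.04 for Ednrb. Between the control populations Tyrp1 ranged from -0.28 to 0.21 and was -0.20 with a pseudocount of 0.1. For Pmel the Tom difference between cell types ranged from -0.19 to 0.53.

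The counts over all tested genes moved as well. In HF-SC GFP against Co 4909 calls became 3285 to 6569 with a mouse left out (highest without 817, lowest without 815), and in HF-SC Tom 5658 became 3959 to 7571 (the same mice). Without mouse 817 the b-KC GFP and Tom calls were 7575 and 7349. With only the groups compared, b-KC Tom went from 5857 to 7144 and the control populations from 6623 to 8115 (4832 to 4989 with a control mouse left out). The changes in the counts of members are to be read beside these. HF-SC GFP against HF-SC Tom had 1100 calls, but 375 with only the groups compared, 1729 and 629 with the random and fixed block, 487 and 424 without mouse 814 or 815 and 2922 without mouse 817. For b-KCs 218 became 3, 614 and 474, 28 and 1, and 850. Without mouse 815, calls in b-KC GFP fell from 5301 to 2612 and in b-KC Tom from 5857 to 3822, and without mouse 828 those in b-KC GFP were 3464. The GFP and Tom differences between cell types had 1597 and 2019 calls, 427 to 3921 and 898 to 3243 with a mouse left out, and 2884 and 3051 with the random block.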

Other observations

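Genes outside the set were ranked by how closely log2(FPKM + 1) followed that of the set over the 18 libraries, which share mice and groups, so the correlations are descriptions. Closest to the mean of Dct, Tyr, Tyrp1, Pmel and Mlana were Fam115c (r = 0.83), 5430421F17Rik (0.82), Rnf24 (0.80), Scnn1b (0.79), Itgam (0.77), Mxd1 (0.77), Atp11b (0.76), Malt1 (0.76), 9530059O14Rik (0.75) and Kdm7a (0.74). None of these is on the list of other pigment cell genes, and Itgam is on the list of leukocyte markers. Closest to Kitl were Fbxo30 (0.90), Kank3 (0.90), Ddx58 (0.89), Plekho2 (0.88), Jak3 (0.87), Slc5a3 (0.87), Stat2 (0.87), Stk3 (0.86), Nf1 (0.86) and Ece1 (0.86), the last of which is the endothelin-converting enzyme listed among the signals to melanocytes.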
